A study of Rattus norvegicus with 13 samples.

Results

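The baseline miRNA repertoire of the rat kidney was described from the 4 unirradiated control kidneys of a study of 13, using the 460 mature rat miRNA entries of a table that holds 1121 entries in all. Members were all entries in the table's category of mature rat miRNAs and all samples of the group labelled 0 Gy. That rule uses no measured value. The control rats were female Wistar rats of the inbred WAG/RijCmcr strain, age-matched to animals that were 11 to 12 weeks old and about 155 g at irradiation. They received no radiation and are labelled as without medication, and their kidneys were taken 35 days after the other groups were irradiated with 13 Gy. RNA came from the kidney as an organ, and the labels name no zone or cell sort. Whether control rats received the saline and antibiotic given as supportive care is not stated in the labels. In such bulk samples, fewer cells of a type and less RNA per cell cannot be told apart.

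A miRNA is a short RNA cut from a hairpin precursor. Either arm of the hairpin, 5p or 3p, can be loaded into an Argonaute protein, and the seed, bases 2 to 8 of the mature strand, directs much of the pairing with messenger RNAs, so miRNAs with a shared seed are counted as a family. Many miRNA genes lie close together and are made from a shared transcript. The kidney is known for miR-192 and miR-194 in the tubular epithelium, for miR-204 in the tubules, for miR-30 members in podocytes and for miR-10a, which is encoded among the Hox genes that pattern the trunk and the urogenital tract.

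The sequences of leading miRNAs and some of their seed relatives are shown first, because a few seeds account for the greater part of the counts, together with miR-204-5p, a kidney marker of low abundance. The letters are the RefSeq mature sequences (GRCr8), 5′ to 3′, with the seed in capitals.
miR-10a-5p: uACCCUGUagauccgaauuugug
miR-30a-5p: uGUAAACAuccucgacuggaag
miR-30e-5p: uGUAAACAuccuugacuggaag
miR-30c-5p: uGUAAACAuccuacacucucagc
miR-192-5p: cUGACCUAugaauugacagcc
miR-22-3p: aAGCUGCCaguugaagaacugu
miR-26a-5p: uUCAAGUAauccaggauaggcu
miR-26b-5p: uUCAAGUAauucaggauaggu
miR-143-3p: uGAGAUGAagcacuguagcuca
miR-27b-3p: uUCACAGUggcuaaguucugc
let-7f-5p: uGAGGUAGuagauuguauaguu
let-7i-5p: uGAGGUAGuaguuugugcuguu
miR-204-5p: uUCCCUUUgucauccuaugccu
The shared capitals mark miR-30a, miR-30e and miR-30c as a family, miR-26a and miR-26b as another, and let-7f and let-7i as members of the let-7 family. In GRCr8 miR-10a-5p lies at chr10:81779730-81779752 on the plus strand within Mir10a, miR-30a-5p at chr9:33233946-33233967 (plus) within Mir30a, and miR-192-5p at chr1:212994232-212994252 (plus) within Mir192. miR-204-5p lies at chr1:229743493-229743514 (plus) within Mir204.

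Rat mature counts totalled 8459787, 1194175, 9426318 and 9075318 in control kidneys 1 to 4, so that kidney 2 was far shallower than the rest. These entries held 46.5% to 51.2% of all counts in the table. Mature miRNAs named after other species held a further amount, equal to 29.0% of all mature counts in kidney 2 and 10.8% to 12.7% in kidneys 1, 3 and 4, and they were left out of the totals. Shares below are percentages of rat mature counts in a library, given as mean ± SD over n = 4. A share compares reads, and the efficiency of adapter ligation differs between miRNA sequences, so a rank is a rank of reads. CPM values are counts scaled to a common library size by TMM, whose size factor discounts the few largest entries. No groups were compared, and no p-values are given.

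miR-10a-5p led every kidney and alone held 36.0% ± 5.65 of the counts. Its share was 34.9%, 44.2%, 31.7% and 33.1% in kidneys 1 to 4, highest in kidney 2, where the 95% Wilson interval of 44.2% to 44.3% covers counting error only. Without kidney 2 its mean share was 33.3%. miR-30a-5p followed at 8.28% ± 0.806, with 9.48%, 7.91%, 7.82% and 7.89%. The value in kidney 1 stood above a narrow range in the others. miR-192-5p, the kidney miRNA transcribed together with miR-194, held 7.10% ± 1.22, with 7.92%, 5.50%, 6.82% and 8.17%. It was lowest in kidney 2 and passed miR-30a-5p in kidney 4. miR-22-3p, a miRNA of many tissues, held 6.17% ± 1.05 and lay between 5.29% and 7.43%. miR-26a-5p held 5.18% ± 0.443 and lay between 4.81% and 5.77%. These 5 miRNAs took the first 5 ranks in every kidney and together held 62.7% ± 3.76.

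The next miRNAs stood well below them. miR-143-3p, a miRNA of smooth muscle and other mesenchymal cells, was at rank 6 in all 4 kidneys with 2.94% ± 0.333. miR-27b-3p held 2.34% ± 0.0458, the smallest SD among the leading 20 entries, and lay between 2.28% and 2.38%. miR-378a-3p, hosted by the gene of the metabolic coactivator PGC-1β, held 2.25% ± 0.394. miR-3596a, an entry annotated opposite let-7a, held 2.04% ± 0.305. The remaining leading entries were miR-30e-5p (1.89%), miR-30d-5p (1.86%), miR-181a-5p (1.69%), miR-3557-5p (1.63%), miR-30c-5p (1.59%), miR-21-5p (1.48%), let-7f-5p (1.25%), miR-191a-5p (1.00%), miR-16-5p (0.848%), miR-126a-5p (0.797%) and miR-182 (0.745%). Of these 11, miR-21-5p, which is known to rise in injured kidney, was highest in kidney 1 at 1.86% and at 1.47%, 1.29% and 1.29% in kidneys 2 to 4. miR-181a-5p was at 1.14% in kidney 2 and at 1.80% to 1.92% in the others, and miR-191a-5p at 0.636% in kidney 2 and 1.097% to 1.16% in the others.

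The order of the leading entries was only partly fixed between animals. Ranks were the same in all 4 kidneys for miR-10a-5p, miR-22-3p, miR-26a-5p and miR-143-3p. Of the 20 leading entries, 7 exceeded the next entry in all 4 kidneys, 9 in 3 kidneys and 4 in 2 kidneys. miR-30e-5p ranged from rank 7 to rank 14, and miR-3596a from rank 8 to rank 13. The same 19 entries were among the first 20 in every kidney, and in kidney 3 let-7i-5p stood there in place of miR-182.

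**Figure D1:**
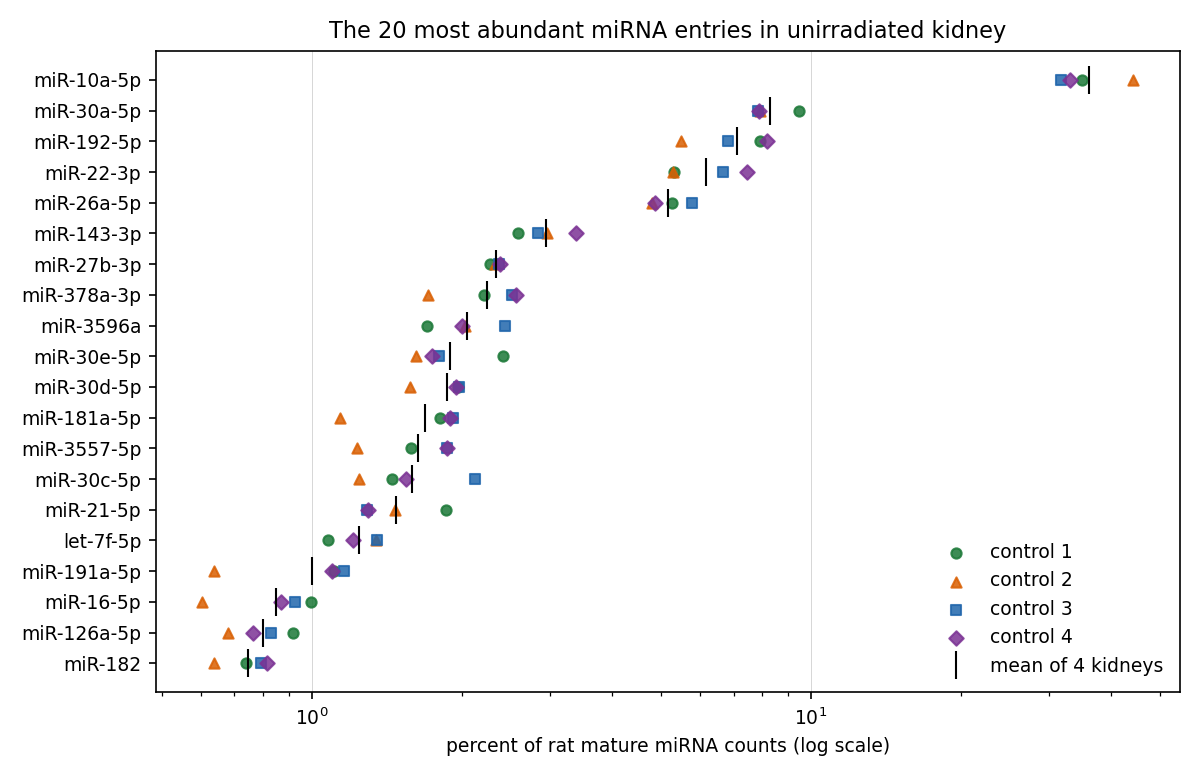
Share of rat mature miRNA counts (percent, log axis) of the 20 leading entries in each of the 4 control kidneys (points) with the mean. miR-10a-5p lies between 31.7% and 44.2% in all 4 kidneys, while no other entry exceeds 9.48%.

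The repertoire was concentrated in few entries. The 20 leading entries together held 87.1% ± 1.66 of the counts, and the first 50 and 100 entries of each kidney held 95.8% ± 0.486 and 98.8% ± 0.124. The counts reached 50% of the total with 3, 2, 4 and 4 entries in kidneys 1 to 4, and 90% with 25, 22, 29 and 26 entries. The effective number of miRNAs, the exponential of the Shannon entropy of the shares, was 18.3, 13.9, 21.7 and 19.5. Kidney 2, with the highest share of miR-10a-5p, had the lowest value on each of these measures. With miR-10a-5p left out, the effective number was 32.1 to 36.2 and kidney 2 no longer stood lowest, at 32.9 against 32.1 in kidney 1.

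Most entries were rare. A single entry held over 10%, 16 held 1% to 10% and together 48.7%, and 42 held 0.1% to 1% and together 12.1%. A further 89 entries between 0.01% and 0.1% summed to 2.72%, 131 between 0.001% and 0.01% to 0.456%, and the 181 below 0.001% to 0.0503%. Taking 3 counts as the lowest detectable level, 448, 349, 459 and 455 of the 460 entries were detected in kidneys 1 to 4, and 347 in every kidney. That level equals 2.51 CPM of the unscaled total in kidney 2 and 0.318 to 0.355 CPM in the others, for counting error only. Of the 113 entries under 3 counts somewhere, 98 were under it in kidney 2 alone. Together the 113 held 0.0172% of the counts, the most abundant being miR-144-5p at 0.000651%. Thinned to the 1194175 counts of kidney 2, the libraries had 356, 349, 374 and 359 detected entries. No entry stood at 0 in a kidney and above 100 counts in another.

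**Figure D2:**
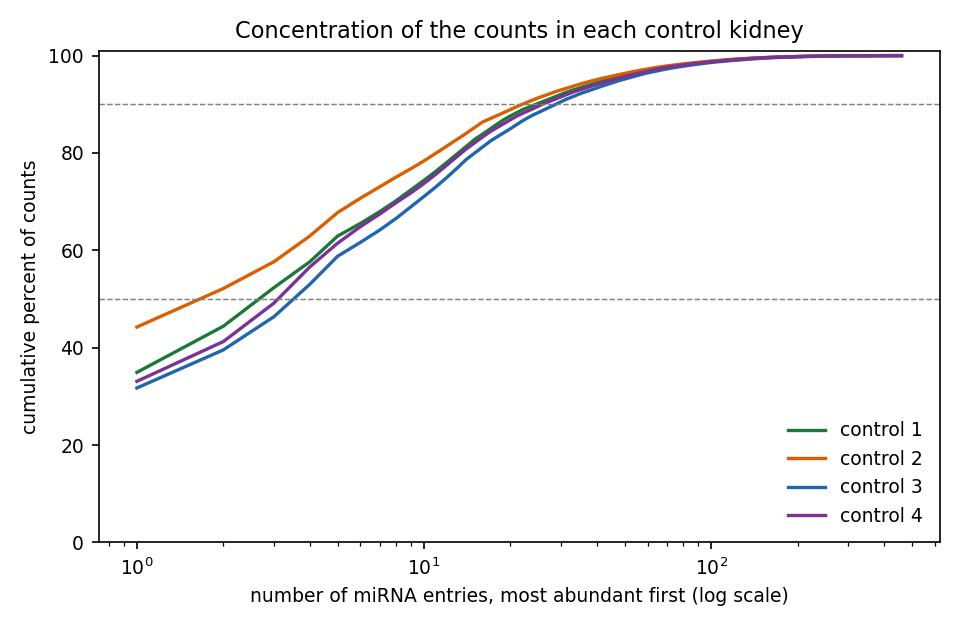
Cumulative percent of rat mature counts against the number of entries, ranked within each control kidney, with 1 line per kidney. The lines pass 90% at 22 to 29 entries, and the line of kidney 2 starts highest, at 44.2%.

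By seed, the 460 entries formed 384 families, of which 41 had several members, and the 8 leading families held 77.8% ± 2.68. The family led by miR-10a-5p held 36.0% with a single member. The miR-30 family held 13.9% ± 1.26, the let-7 family 3.52% ± 0.578 and the miR-26 family 5.72% ± 0.499. Sequences matched RefSeq for 415 of the 460 entries, which held 95.9% of the counts, and 10 of the other 45 were joined to a family by name, among them miR-30d-5p and miR-30b-5p.

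The miR-30 family, with the seed GUAAACA, held 15.5%, 12.5%, 14.0% and 13.3% in kidneys 1 to 4. Within it miR-30a-5p took 59.8% ± 3.12 of the family's counts, miR-30e-5p 13.6%, miR-30d-5p 13.5%, miR-30c-5p 11.5% and miR-30b-5p 1.66%. miR-384-5p, which carries the same seed, was at 0.0026% of the family. In the miR-192 family miR-192-5p took nearly all of the 7.10%, and miR-215, which shares the seed UGACCUA, 0.024%. In the miR-26 family miR-26a-5p took 90.6% and miR-26b-5p 9.40%. miR-27b-3p took 95.05% of the miR-27 family, which held 2.46% ± 0.0520 and lay between 2.40% and 2.51%. miR-22-3p and miR-143-3p were single members of their families.

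The let-7 family, known as a brake on growth-promoting messenger RNAs in differentiated tissue, had the least dominant leading member of the 8 families. It held 2.95%, 3.28%, 4.31% and 3.52% in kidneys 1 to 4. let-7f-5p took 35.8% of the family's counts, let-7i-5p 19.7%, let-7c-5p 16.6%, let-7a-5p 13.6% and let-7b-5p 8.13%. let-7d-5p took 3.14%, let-7e-5p 2.24%, miR-98-5p 0.748% and let-7g-5p 0.084%. Several of these sequences differ by few bases, so counts may have been split among them, and the handling of reads that fit several members is unknown here.

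miR-10b-5p, the close relative of miR-10a-5p, did not share its seed family in this annotation and was rare. The annotated mature strands start 2 bases apart.
miR-10a-5p: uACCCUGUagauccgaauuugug
miR-10b-5p: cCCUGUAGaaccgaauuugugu
Over the 21 bases that align, the sequences differed at 1, written U12A with positions counted from the 5′ end of miR-10a-5p. miR-10b-5p was at 52.1, 103, 54.0 and 60.0 CPM in kidneys 1 to 4, with a mean share of 0.00658% ± 0.00157. The count of miR-10a-5p was 5026 to 6841 times as high. How reads that fit both entries were assigned is unknown here, so the level of miR-10b-5p is uncertain. Whether misassigned reads of miR-10a-5p added to it was not tested.

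**Figure D3:**
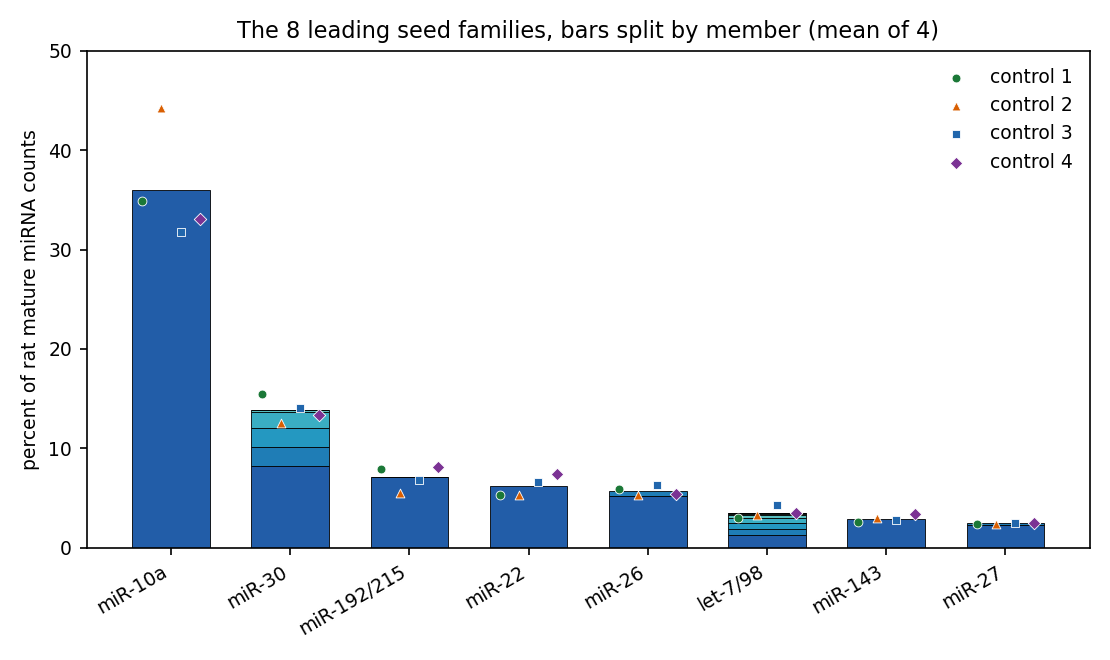
Share of rat mature counts (percent) of the 8 leading seed families, bars split by member as the mean of 4 control kidneys, with the family total of each kidney as points. The bar of miR-10a is a single block at 36.0%, the bar of miR-30 is mostly miR-30a, and the let-7 bar is split among several members.

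Genes were grouped into loci when neighbours on the same strand of a chromosome lay within 10 kb of each other in the RefSeq annotation of GRCr8, which was used for neighbours only, because the authors worked on rn4. The 458 entries that matched a gene fell into 220 loci with 317 genes. For the 22 entries with several loci, the count was divided equally among them, which is an assumption and not a measured output of each locus. The 47 loci of several genes held 30.2% ± 3.08 of the counts, with 30.7%, 25.7%, 32.2% and 32.1% in kidneys 1 to 4. Loci of a single gene held 69.7%, chief among them Mir10a at 36.0%, Mir30a at 8.36%, Mir22 at 6.18% and Mir26a at 5.19%. The 8 leading loci held 71.4% ± 3.41.

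In the 5 loci of several genes described next, the leading product held 68.3% to 98.4% of the counts. The Mir192 and Mir194-2 locus held 7.32% ± 1.25, and miR-192-5p made 97.0% of it. miR-194-5p, whose count was divided equally between its loci, added 0.212%. The Mir143 and Mir145 locus held 2.99% ± 0.328, with miR-143-3p at 98.4% of it, while miR-145-5p from the same transcript was at 0.0394%. The locus of Mir23b, Mir27b and Mir24-1 held 2.55% ± 0.0695, with miR-27b-3p at 91.9%, miR-23b-3p at 0.149% and miR-24-3p at 0.0528%. The Mir30c1 and Mir30e locus held 2.77% ± 0.396, of which miR-30e-5p was 68.3%. The Mir30b and Mir30d locus held 2.11% ± 0.223, with miR-30d-5p at 88.4% and miR-30b-5p at 0.230% of all counts. In the Mir30c1 and Mir30e locus the part of miR-30c-5p assigned to it by equal division was 0.795% of all counts, and the 68.3% rests on that division. Products were nearer to each other in some less abundant loci. In that of Mir200a, Mir200b and Mir429, miR-200b-3p held 0.355%, miR-429 0.251% and miR-200a-3p 0.215%, with no count divided among loci.

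Other known clusters held less. The Mir191 and Mir425 locus held 1.04%, the locus of let-7a-1, let-7f-1 and let-7d 1.03%, that of Mir181a-1 and Mir181b1 0.961% and that of miR-15b and miR-16 0.915%. The locus of miR-200a, miR-200b and miR-429, a set that maintains epithelial identity, held 0.837%, and that of miR-182, miR-96 and miR-183, known from sensory organs, 0.793%. The X-linked miR-322 cluster held 0.242% and the miR-17-92 cluster, linked to proliferation, 0.238%. Of the latter, 85.1% was the part of miR-92a-3p assigned to it, as that entry also has a gene in another locus. miR-20a-5p, placed in the miR-17-92 cluster alone, held 0.00585%. The largest locus by gene number, 28 genes of the imprinted Dlk1-Dio3 domain with 36 entries, held 0.0507% ± 0.0115 and stood at rank 60. Its leading product was miR-541-5p with 31.8% of the locus.

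A dominant arm was found for most hairpins. Both arms were in the table for 136 hairpins with a mean of at least 100 counts, and the 5p arm was the larger in all 4 kidneys in 78 of them, the 3p arm in 52, while in 6 the larger arm differed between kidneys. The larger arm took a median of 96.1% of a hairpin's counts, over 90% in 97 hairpins and under 75% in 22. Among the 85 hairpins with at least 1000 counts the median was 98.5%. Entries named 5p held 77.2% ± 2.51 of all counts, entries named 3p 19.2% ± 2.19, and entries without an arm in the name 3.60% ± 0.468. With miR-10a-5p left out, the share of 5p entries was 64.4% ± 2.29.

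A few hairpins with a mean of at least 1000 counts delivered both arms. Among hairpins of that level, miR-339 was nearest to an even split, and its arms are shown with their seeds in capitals.
miR-339-5p: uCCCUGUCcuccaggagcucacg
miR-339-3p: uGAGCGCCucgacgacagagcca
The 5p arm took 54.7%, 49.8%, 52.9% and 50.5% of the counts of this hairpin in kidneys 1 to 4, from 1508, 245, 2705 and 2715 counts. In kidney 2 the Wilson interval was 43.6% to 56.0%, so a change of the larger arm was not detectable at this depth. The 5p share was 41.4% ± 4.46 for miR-423, 63.5% ± 2.72 for miR-322, 35.1% ± 2.70 for miR-151 and 67.8% ± 8.83 for miR-872. For miR-126a, the endothelial miRNA hosted by Egfl7, it was 66.9% ± 1.62, so that both strands were abundant, miR-126a-5p at 0.797% and miR-126a-3p at 0.395% of all counts. The values of miR-872 were 71.9%, 75.3%, 55.1% and 68.9%, with kidney 3 lowest.

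The other hairpins whose larger arm differed between kidneys were miR-455, miR-324, miR-708, miR-7a and miR-144, each with fewer counts than miR-339. miR-455 gave 69.1%, 73.5%, 49.1% and 65.9% from the 5p arm, and in kidney 3, the exception, the interval was 45.5% to 52.7%. miR-324 was on the 3p side in kidney 2 alone, at 41.7% of 48 counts (28.8% to 55.7%), and miR-708 on the 5p side in kidney 2 alone, at 50.9% of 57 counts (38.3% to 63.4%). For miR-144 and miR-7a the kidneys above 50%, kidney 4 at 54.2% (40.3% to 67.4%) and kidney 1 at 55.1% (48.3% to 61.7%), had intervals that included 50%. In kidney 2 miR-144 had only 8 counts and gave 12.5% from the 5p arm (2.24% to 47.1%), below the 46.4% to 54.2% of the others but on the same side of 50% as kidneys 1 and 3. In each of the 6 hairpins the intervals of the kidneys on the less frequent side of 50% included 50%. Without kidney 2 the larger arm differed in 3 hairpins, miR-144, miR-455 and miR-7a.

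**Figure D4:**
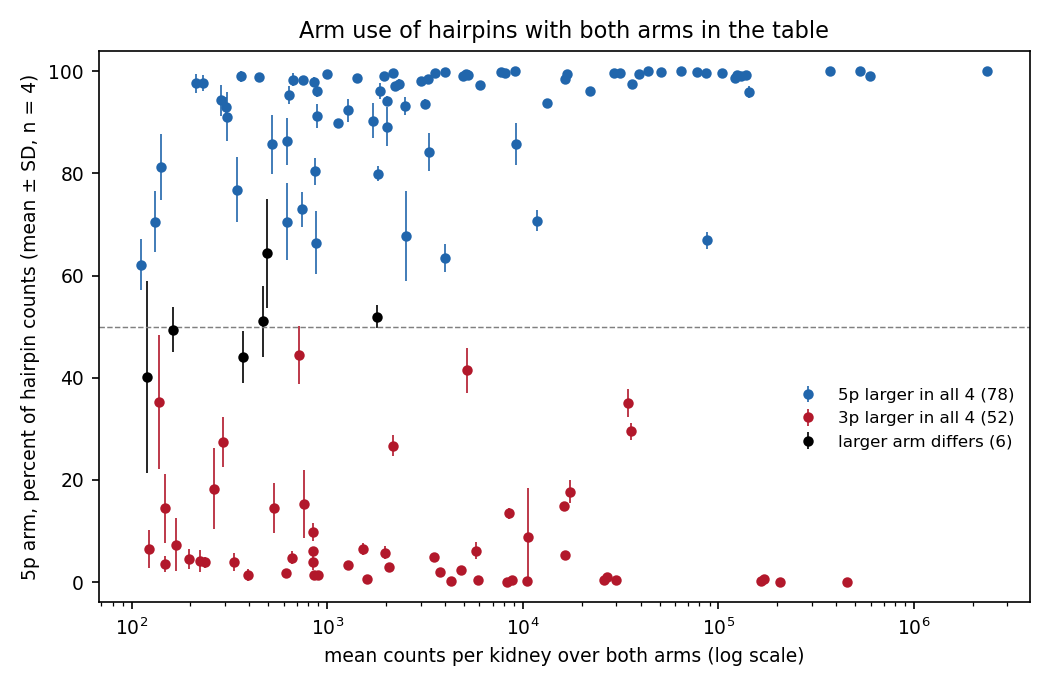
Percent of a hairpin's counts in the 5p arm (mean ± SD over 4 control kidneys) against the mean counts of both arms (log axis) for 136 hairpins. Most points lie near 0 or 100, and the 6 hairpins whose larger arm differed between kidneys lie toward the left and near the dashed line at 50%.

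Some entries are annotated on opposite strands at the same place, and 2 of them, miR-3596a and miR-3557-5p, were among the 20 leading entries. The pairs are shown with the bases that are exact reverse complements in capitals.
let-7a-5p: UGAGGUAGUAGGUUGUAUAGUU
miR-3596a: AACUAUACAACCUACUACCUCA
miR-378a-3p: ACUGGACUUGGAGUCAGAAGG
miR-3557-5p: gCCUUCUGACUCCAAGUCCAGU
let-7a-5p and miR-3596a occupy the same interval of GRCr8, chr8:50805219-50805240, on the plus and the minus strand. miR-378a-3p lies at chr18:57128925-57128945 on the minus strand and miR-3557-5p at chr18:57128924-57128945 on the plus strand. The use of strand in the authors' counting is not known here, and without strand, reads from such partners cannot be told apart, so the values of both members are uncertain.

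The search found 35 pairs with at least 16 complementary bases, 31 of them at the same place. In each pair the entry with the higher number, or at equal numbers the later name, was taken as the opposite one. These 31 opposite entries held 4.14% ± 0.574 of the counts. For the 18 pairs with both entries at 10 CPM or more, the count of the opposite entry per count of its partner had a median of 0.826 and ranged from 0.0245 for miR-3596d opposite let-7f-5p to 9.56 for miR-203b-3p opposite miR-203a-5p. The opposite entry reached at least 0.5 times its partner in 13 of the 18 and exceeded it in 4.

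For most pairs these ratios varied little between animals. miR-3557-5p held 0.713, 0.723, 0.742 and 0.727 times the count of miR-378a-3p in kidneys 1 to 4. miR-3596b held 0.879 to 0.930 times the count of let-7d-5p, and miR-3588 0.733 to 0.770 times that of miR-125b-5p. miR-3596a held 4.74, 4.68, 3.78 and 4.02 times the count of let-7a-5p, and it also contains an 18-base complement of let-7c-5p and a 16-base complement of let-7b-5p. The median coefficient of variation (CV, the SD over the mean) of the 18 ratios was 4.15%, against 13.0% for the CPM of the partners, and the ratio varied less than the partner in 15 of the 18. With the counts of opposite entries added to their partners, the let-7 family held 5.71% ± 0.914, let-7a-5p 2.53% ± 0.424 and miR-378a-3p 3.88% ± 0.693.

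**Figure D5:**
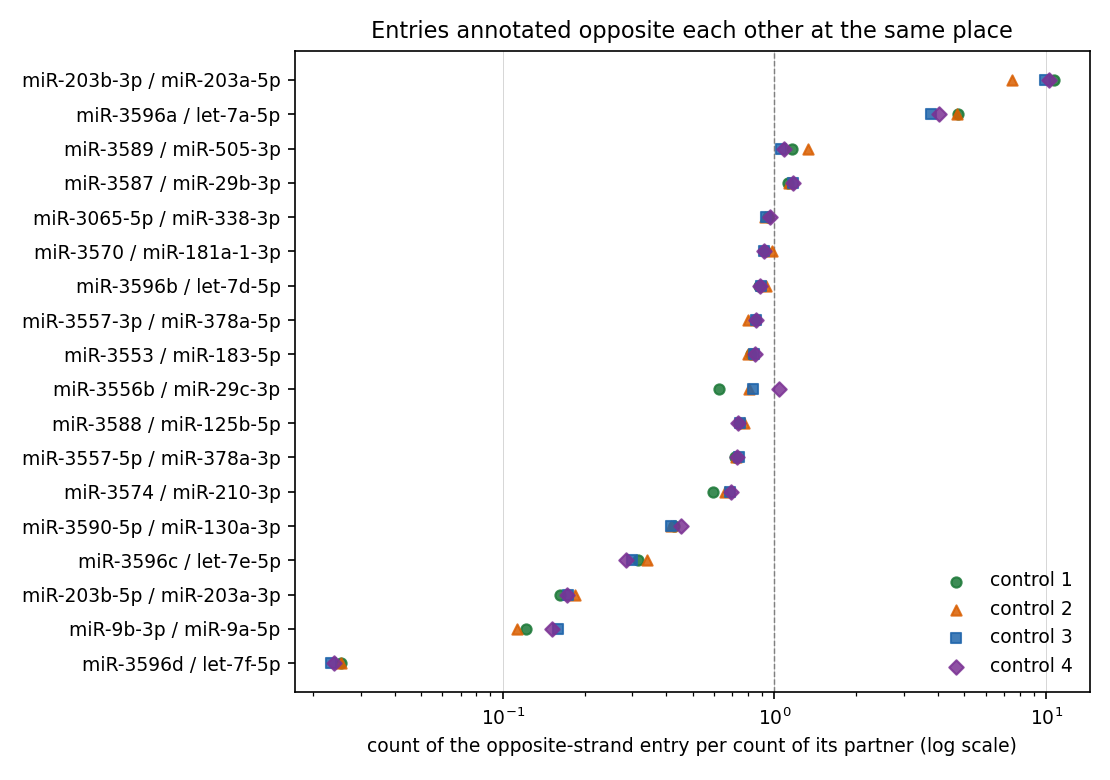
Count of the opposite-strand entry per count of its partner (log axis) for the 18 pairs with both entries at 10 CPM or more, with 1 point per control kidney. The 4 points of most pairs lie close together, and 13 pairs have a mean ratio of at least 0.5.

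Shares were summed over lists of miRNAs known from kidney and from other cell types. The lists were chosen with earlier results of these data known, so a large share of the kidney list is no check of the labelled tissue. The kidney list held 43.7% ± 4.70 of the counts, most of it miR-10a-5p, and 7.67% without that miRNA. miR-10a-5p stood at rank 1 and miR-192-5p at rank 3. miR-194-5p held 0.423% ± 0.0588 at rank 25. miR-204-5p, the tubular marker, stood at rank 112 with 0.0204% ± 0.00215. Its level was 192, 214.9, 197 and 209 CPM in kidneys 1 to 4, a narrow range for an entry with 220 counts in kidney 2. Its relative miR-211-5p was at 0.689 CPM. Among the Hox-cluster miRNAs, miR-196b-5p held 0.0666% and miR-196a-5p 0.0288%. All 9 miRNAs of the list had at least a count in every kidney, and miR-211-5p had a single count in kidney 2, under the 3 taken as detectable.

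The lists for smooth muscle and fibroblasts, endothelium and epithelium in general held smaller shares than the kidney list. That order rests on miR-10a-5p and miR-192-5p, as the next entry of the kidney list, miR-194-5p, held 0.423%. The smooth muscle and fibroblast list held 3.22% ± 0.318, led by miR-143-3p, with miR-199a-3p at 0.193% and miR-214-3p at 0.00466%. The endothelial list held 1.24% ± 0.153, led by miR-126a-5p. The epithelial list held 0.903% ± 0.137, led by miR-200b-3p at 0.355%, miR-429 at 0.251% and miR-200a-3p at 0.2146%, while miR-141-3p at 0.0532% and miR-200c-3p at 0.0122%, which come from another locus, stood lower.

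Blood-cell miRNAs were low and varied more. The leukocyte list held 0.0887% ± 0.0241, led by miR-150-5p of mature lymphocytes at 354, 385, 691 and 350 CPM, with kidney 3 highest. miR-142-5p, found in all leukocytes, was at 293, 231, 152 and 164 CPM, with kidney 1 highest. The erythroid list held 0.167%, 0.0723%, 0.231% and 0.1045% in kidneys 1 to 4. Most of it was miR-486, with a mean share of 0.137% against 0.00666% for the rest of the list. miR-486 was at 1617, 817, 1863 and 1007 CPM, and miR-451-5p, the most specific of the erythroid miRNAs, at 67.2, 18.6, 94.7 and 14.2 CPM. Each of the 4 erythroid entries was higher in kidneys 1 and 3 than in kidneys 2 and 4. In kidney 2, miR-144-5p had 1 count, miR-144-3p 7 and miR-451-5p 19. The amount of blood left in the organs is not given in the labels, and its part in other values was not tested.

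Of the miRNAs known from tissues outside the kidney, the endocrine miR-375-3p stood highest at 0.164% ± 0.0335. Of the 7 muscle miRNAs listed, 3 were measured. The highest was miR-499-5p at 292 CPM and 0.0285% of the counts (rank 96), above the tubular marker miR-204-5p. miR-1-3p, the chief miRNA of heart and skeletal muscle, was at 1.66 CPM and miR-133a-3p at 29.1 CPM. The liver miRNA miR-122 and the neuronal miR-124 and miR-137 were not analysed here. miR-9a-5p, a neural miRNA, was at 269 CPM (rank 99), also above miR-204-5p, and miR-129-5p at 4.96 CPM.

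The spread between the 4 libraries includes differences between animals and in library preparation, which cannot be told apart with a library per animal. For the 276 entries at 10 CPM or more the median CV was 16.2%, with an interquartile range of 10.9% to 22.6%, and the median CV that Poisson counting would give was 5.30%. For the 147 entries with at least 100 CPM the medians were 13.4% and 2.51%, and 133 of the 147 had a CV over 2 times the counting value. Each of the 4 kidneys was the highest or the lowest for 71 to 75 of the 147 entries. Between kidneys, log2 CPM of the 276 entries correlated at r = 0.977 to 0.992 across entries, which are not independent, and the pairs that included kidney 2 gave 0.977 to 0.982.

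Among entries with at least 100 CPM, the steadiest by CV of CPM spanned a wide range of levels. That ranking depends on the TMM scaling. let-7i-5p, of the let-7 family, had a CV of 2.72% at 6723, 6622, 6975 and 6995 CPM. Its share of counts varied more, at 0.659%, 0.568%, 0.815% and 0.713% in kidneys 1 to 4. By contrast, miR-27b-3p, whose share was steady, had a CV of 12.0% in CPM. miR-15b-5p had a CV of 3.41%, miR-210-3p, the miRNA of hypoxia, 4.06%, miR-351-5p 4.39%, miR-98-5p 4.50% and miR-199a-5p 4.77%. For miR-210-3p the counting value was 4.43%, so no spread beyond counting error was detectable at this depth.

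Beside each of the 6 most variable entries, the lowest CV reached with a single kidney left out is given. The kidney was chosen for that value, so a lower CV is no trait of these entries. The same choice lowered the CV of each of the 6 steadiest entries, for let-7i-5p from 2.72% to 2.20%. miR-140-5p was at 63.5, 340, 48.8 and 60.4 CPM (CV 110%), and without kidney 2 its CV was 13.4%. In the same kidney the 5p arm of miR-140 took 23.2% of the hairpin, against 3.45% to 5.14% in the others. miR-205, known from stratified and ductal epithelium, was at 164, 277, 292 and 24.0 CPM (CV 65.6%, or 28.7% without kidney 4). miR-19b-3p, with a gene in the miR-17-92 cluster and another in a different locus, was at 326, 641, 190 and 188 CPM (CV 63.4%, or 33.6% without kidney 2). miR-499-5p, a miRNA of heart and slow muscle, was at 256, 465, 235 and 212 CPM (CV 40.0%, or 9.30% without kidney 2). miR-301a-3p was at 906, 553, 426 and 463 CPM (CV 37.3%, or 13.6% without kidney 1). miR-423-5p was at 150, 231, 344 and 382 CPM (CV 38.3%, or 24.7% without kidney 1).

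The counts were distributed over sequence types differently from the entries. A first base of U, which the Argonaute pocket is known to favour, was found in 39.0% of the 415 entries with a sequence and in 72.8% ± 3.93 of their counts, and in 56.6% with miR-10a-5p left out. A first base of G was found in 10.1% of entries and 1.87% ± 0.339 of counts. The mean length was 21.9 bases over entries and 22.3 weighted by counts, or 21.9 without miR-10a-5p, and the GC content was 47.7% over entries and 44.4% weighted by counts.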

How the data were processed

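Small RNA libraries were made from 1 ug of total kidney RNA with a TruSeq small RNA kit, per the labels' protocols. Trim Galore 0.2.5, Bowtie 1.1.1 and the rn4 build are named in the submitters' processing notes. The deposited values are read counts per entry and library, all whole numbers with unequal totals. The sources used here do not give how the authors assigned reads to entries or whether strand was used.

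The 4 control libraries were taken by the group name in the labels, which describe separate rats. No library was left out. Shares used the rat mature total, and CPM used TMM factors of 0.980, 0.857, 1.17 and 1.02 (edgeR 4.0.16, R 4.3.3; biological coefficient of variation 0.259 over 276 entries). Sequences, seeds and neighbours came from RefSeq GRCr8. Intervals are Wilson 95% intervals of counts without molecular identifiers. The calculations were tested on simulated data. The members, the lists and the alternatives were chosen with earlier results of these data known. Named were the 20 highest mean shares, the 8 leading families and loci with their members of at least 0.01%, the 6 hairpins of at least 1000 counts nearest an even split and those whose larger arm differed, the 6 highest and 6 lowest CV from 100 CPM, and the highest member of each marker list. The remaining names were added after their values were seen.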

Additional observations from a re-analysis of the deposited data

Results flagged for a closer look

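Of 93 quantities examined over the 4 control kidneys, 10 had a kidney whose gap to the nearest other was too large a part of the whole range by Dixon's criterion for 4 samples. Chance gives this for about 1 in 20 independent quantities that were not chosen by their spread. Some of the 93 were chosen for a high or low CV or a differing arm, and others overlap. The 10 can therefore not be set against that rate, and many of them share a library.

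Kidney 2 stood apart in 7 of the 10. Its rat mature counts were 1194175, against 8459787 to 9426318 in the others, and 349 entries were detected in it, against 448 to 459. Mature miRNAs named after other species took 29.0% of its mature counts, against 10.8% to 12.7%. The share of miR-30d-5p was 1.57% in kidney 2 and 1.94% to 1.97% in the others, that of miR-181a-5p 1.14% and 1.80% to 1.92%, and that of miR-191a-5p 0.636% and 1.097% to 1.16%. miR-140-5p was at 340 CPM in kidney 2 and 48.8 to 63.5 CPM in the others.

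Kidney 1 stood apart for miR-30a-5p, at 9.48% against 7.82% to 7.91%, and for the locus of miR-30a, at 9.55% against 7.91% to 7.99%. Kidney 3 stood apart for miR-150-5p, at 691 CPM against 350 to 385 CPM.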

How the results depend on the processing

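Of the values for single miRNAs, families, loci and lists, 40 of 40 moved by more than 1 SD between kidneys with miR-10a-5p left out of the total. Every other share rises when so large an entry leaves the total, so that count shows little. With miRNAs named after other species in the total, 23 of 42 moved by that much. With hairpins included, leaving out a kidney moved 0 of 48. Dropping 1 of 4 values cannot shift a mean by 1 SD, so that count shows nothing. With each kidney left out in turn, the mean share of miR-10a-5p ran from 33.3% to 37.4%. With miRNAs named after other species in the total, miR-10a-5p held 29.8%, the 8 leading families 64.96%, the 8 leading loci 59.6%, loci of several genes 25.4% and the kidney list 36.3%; 50% and 90% of counts were reached by 4.25 and 30.8 entries on average, and the effective number was 23.1. With miR-10a-5p left out, its own family and locus dropped out of those sums. The leading families that remained held 65.3% and the leading loci that remained 55.3%. In the same setting loci of several genes held 47.1% and the rest of the kidney list 11.9%. There 50% and 90% of counts were reached by 6.25 and 36.5 entries on average, and the effective number was 33.5. With miR-10a-5p kept, loci of several genes held 39.5% with neighbours within 50 kb, where Mir30a joins Mir30c2, and 24.4% without miRNAs of several loci. The larger arm differed in 12 hairpins with no count minimum and in 1 from 1000 counts, where 30 had a dominant 3p arm, and in 3 to 6 with each kidney left out in turn. Detected entries common to all kidneys numbered 281 at 10 counts, 423 at 1 count and 445 without kidney 2. Adding the counts of opposite entries to their partners was chosen after seeing the data. The depth of kidney 2 limits what can be said below about 2.51 CPM. No paired analysis was possible because a single group was described.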

Other observations

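Among the mature miRNAs named after other species, gga-miR-1766 took 15.03% of all mature counts in kidney 2 and 0.176%, 0.0931% and 0.520% in kidneys 1, 3 and 4. bta-miR-2340 took 1.79% in kidney 2 and 0.0724% to 0.186% in the others. bta-miR-3600 took 4.66%, 3.68%, 5.72% and 6.38% in kidneys 1 to 4, and its count was 97.8% to 98.4% of that of miR-22-3p. bta-miR-26c took 4.30%, 3.13%, 4.57% and 3.86%, and its count was 90.6% to 91.6% of that of miR-26a-5p. These entries were chosen as the leading ones of their category after their values were seen.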
